A study of Mus musculus with 4 samples.

Results

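The genes described here encode the actin isoforms of heart muscle and vessel wall and the proteins that anchor, cap or lengthen the actin thin filament. They were chosen by name, as the rows of the deposited count table whose GENCODE mouse symbol is Actc1, Acta1, Acta2, Tagln, Actn2, Actn1, Tmod1, Lmod2, Lmod3 or Nebl. All 10 were found among 54752 gene rows, and all 10 passed the filter on low counts that left 15283 genes for testing. RNA from mouse heart taken at postnatal day 14 had been sequenced in 2 libraries labelled Carm1 mutant and 2 libraries labelled wild type. Carm1 encodes an arginine methyltransferase that modifies histone H3 and transcriptional coactivators. The labels give no allele, strain or number of animals, and the series text calls the hearts neonatal. Whether the replicates are different animals is not stated; all p-values therefore rest on a library-to-library spread that may be technical.

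In striated muscle, thin filaments of actin are fixed at the Z-disc by alpha-actinin and reach towards the middle of the sarcomere, where their free pointed ends lie. Tropomodulin caps the pointed end and leiomodin lengthens the filament there, and both are needed for thin filaments of uniform length in the mouse heart. During heart development the sarcomeric actins are exchanged, with smooth muscle and skeletal alpha-actin present early and cardiac alpha-actin dominant in the adult rodent heart.

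The Carm1 mutant libraries held 22217442 and 11677604 counts, against 21719161 and 20778420 in the wild-type hearts. Carm1 averaged 33.8 ± 2.8 CPM (TMM-scaled counts relative to library size) in the mutants and 49.1 ± 4.5 CPM in wild type (SD, n = 2 each), and its difference was not called (edgeR quasi-likelihood FDR 0.114). Reads were summed over all of Carm1, so a deletion of some exons could go unseen and the allele is unchecked. Xist had 8116 and 3921 counts in the mutant libraries against 12 and 15 in wild type, and 4 Y-linked genes together had 7 and 0 counts against 1769 and 2236 counts, so genotype and sex cannot be told apart in any comparison below. Between the genotypes, 7.37% of the genes tested passed an edgeR FDR of 0.05, 4.58% lower and 2.79% higher in the mutants. Scaling by library totals alone moved the median of all log2 fold changes by 0.39 and turned the split from 700 lower and 426 higher calls into 206 lower and 1189 higher.

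Of the 10 genes, 2 fell in the Carm1 mutant hearts and 8 did not pass the test, against a background of 4.58% lower calls. Those that fell were Tmod1, the tropomodulin of the heart, and Lmod2, the cardiac leiomodin. With edgeR no member was called higher (0 of 10). At an unadjusted p under 0.05, 2 members were higher and 6 lower. The share of all genes at that level was not taken. These counts, and those of the lists below, therefore cannot be set against a background. DESeq2 called 1 member higher and 5 lower, and limma-voom 0 higher and 2 lower. Over all genes, DESeq2 called 591 higher and 1114 lower, and limma-voom 426 higher and 702 lower. The 2 lower calls became 1 or 0 when mutant replicate 1 or 2 was left out, and 6 or 5 when wild type replicate 1 or 2 was left out. Lower calls over all genes moved the same way in these fits, to 1.15% and 0.987% without mutant replicates 1 and 2, and to 8.76% and 19.5% without wild type replicates 1 and 2. The levels of the groups did not overlap in 9 of the 10, of which 6 were lower and 3 higher in the mutants. Non-overlap was common in this design and held for 59% of all genes tested, 28.7% lower and 30.3% higher. The median log2 fold change of the members was −0.65, beside 0.02 for all genes tested and −0.77 for 8 cardiomyocyte markers.

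**Figure D1:**
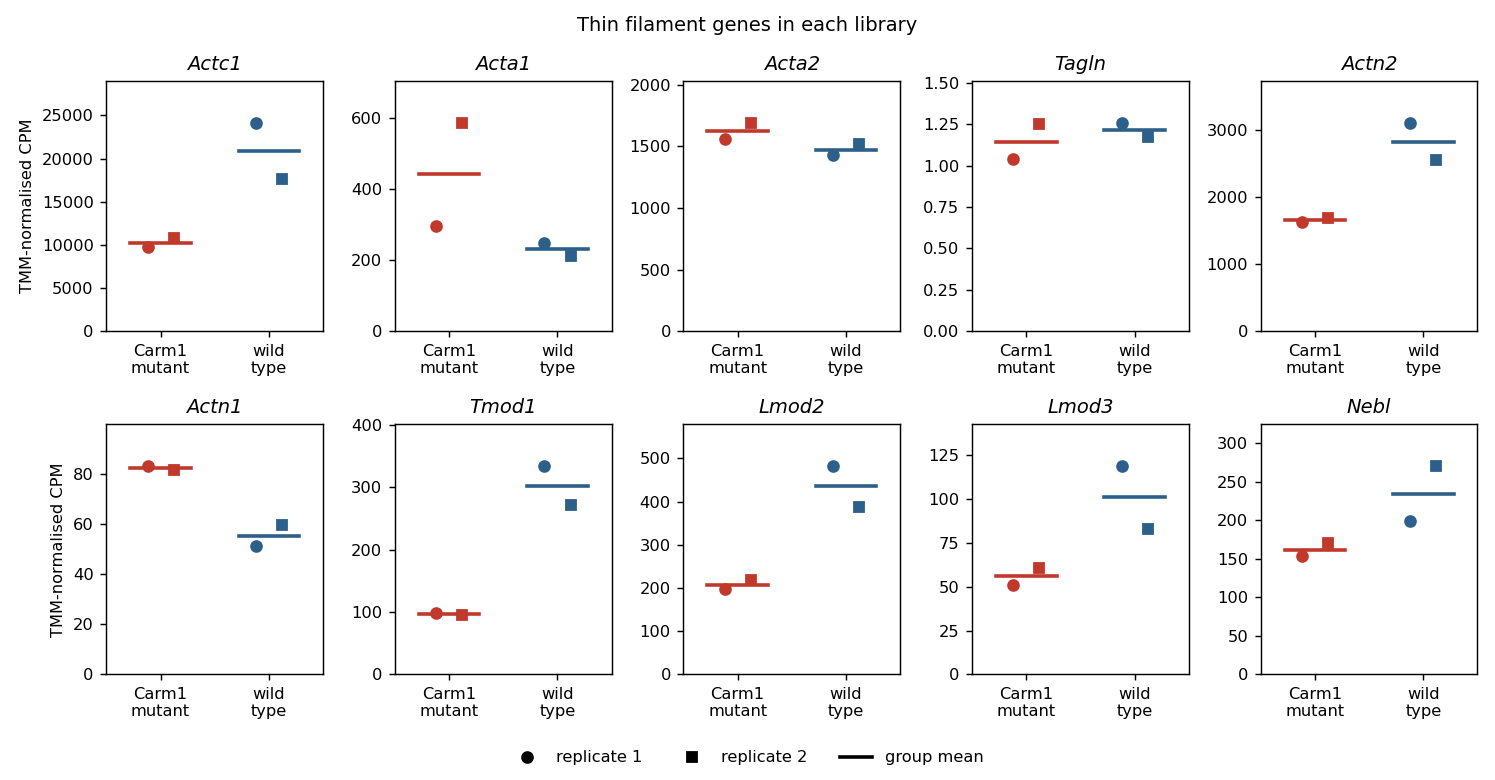
TMM-normalised CPM (vertical axis, from 0) of each of the 10 genes in the Carm1 mutant libraries (red) and the wild-type libraries (blue); circles and squares are replicates 1 and 2 and bars are group means of n = 2. Tmod1 lies at 95.1 to 98.1 CPM in the mutants against 271 to 334 CPM in wild type, while Tagln is near 1 CPM in every library and its groups overlap.

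Tmod1 caps the pointed ends of thin filaments. Its counts were 2461 and 1292 in the mutants, against 5845 and 5308 in wild type. After scaling this was 98.1 and 95.1 CPM in the mutants against 334 and 271 CPM in wild type. Both mutant libraries were far below both wild-type libraries, and the mutant mean was 31.9% of the wild-type mean. Tmod1 fell by 1.65 on the log2 scale (SE 0.21, 95% interval −2.14 to −1.15, edgeR FDR 0.00995, n = 2 each). Without mutant replicate 2 the size was nearly unchanged at −1.63, but the call was lost (edgeR FDR 0.0529). The gene lies on GRCm38 chromosome 4, 46038935 to 46116032, plus strand, and 32.6% of its exon bases are shared with exons of Tstd2 on the opposite strand. Tstd2 had 186 and 110 counts in the mutants, against 115 and 155 in wild type, far fewer than Tmod1, and no source used here says whether reads were counted by strand.

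Lmod2 binds the pointed end in place of tropomodulin and lets the filament grow; mice without it have short thin filaments and dilated hearts. Its level was 198 and 218 CPM in the mutants against 482 and 388 CPM in wild type, without overlap. The mutant mean was 47.8% of the wild-type mean, and Lmod2 fell by 1.07 on the log2 scale (SE 0.22, 95% interval −1.57 to −0.56, edgeR FDR 0.0311, n = 2 each). Leaving out mutant replicate 1 or mutant replicate 2 ended the call (edgeR FDR 0.393 or 0.278), as did scaling by library totals (−0.66, edgeR FDR 0.0611). Lmod2 spans GRCm38 chromosome 6, 24597762 to 24605414, plus strand, and shares no exon base with another annotated gene.

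Lmod3, the leiomodin whose loss causes nemaline myopathy in humans (chromosome 6, 97238534 to 97252759, minus strand), had 51.1 and 60.7 CPM in the mutants against 119 and 83.1 CPM in wild type. The groups did not overlap, but the wild-type libraries differed from each other by more than the nearest mutant and wild-type libraries did. The difference was not called (log2 fold change −0.85, SE 0.23, edgeR FDR 0.0652). Lmod3 had log2 fold changes of −0.59 without wild type replicate 1 and −1.13 without wild type replicate 2. With all libraries kept, it passed in 5 of 15 alternative fits.

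Within each library, the ratio of Tmod1 to Lmod2 counts was 0.495 and 0.437 in the mutants against 0.693 and 0.698 in wild type. The cap gene was thus lower relative to the elongation gene in both mutant libraries, and the ratio does not depend on scaling between libraries. Means were 0.466 ± 0.041 in the mutants and 0.696 ± 0.004 in wild type (SD, n = 2 each; exact two-sided permutation p = 0.333, the smallest that 2 against 2 allows). Lmod3 made up 20.5% and 21.8% of Lmod2 plus Lmod3 counts in the mutants against 19.8% and 17.6% in wild type. The exact Clopper-Pearson 95% intervals of these shares, which cover counting error only, were 19.5% to 21.5% and 20.5% to 23.2% in the mutants against 19.0% to 20.5% and 16.9% to 18.4% in wild type. The intervals of mutant replicate 1 and wild type replicate 1 overlapped, so a shift between the leiomodins was not detectable between those libraries (exact permutation p = 0.333 over the groups).

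Nebl encodes nebulette, the short heart relative of nebulin that binds thin filaments at the Z-disc. The gene lies on chromosome 2, 17343909 to 17731464, minus strand, and had 154 and 170 CPM in the mutants against 199 and 271 CPM in wild type, with a log2 fold change of −0.54 (SE 0.23, edgeR FDR 0.172). Nebl was not called. With all libraries kept, it passed in 1 of 15 alternative fits, the correction for transcript length and GC (−0.70, edgeR FDR 0.0268). Its log2 fold change was −0.76 without wild type replicate 1 and −0.34 without wild type replicate 2. Nebl has the longest exon sequence of the 10 genes, 15235 bases. Wild type replicates 1 and 2 had Spearman correlations of −0.34 and 0.27 between their deviations and transcript length. Those of mutant replicates 1 and 2 were 0.20 and −0.003. The part of transcript length in the spread of Nebl was not tested.

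**Figure D2:**
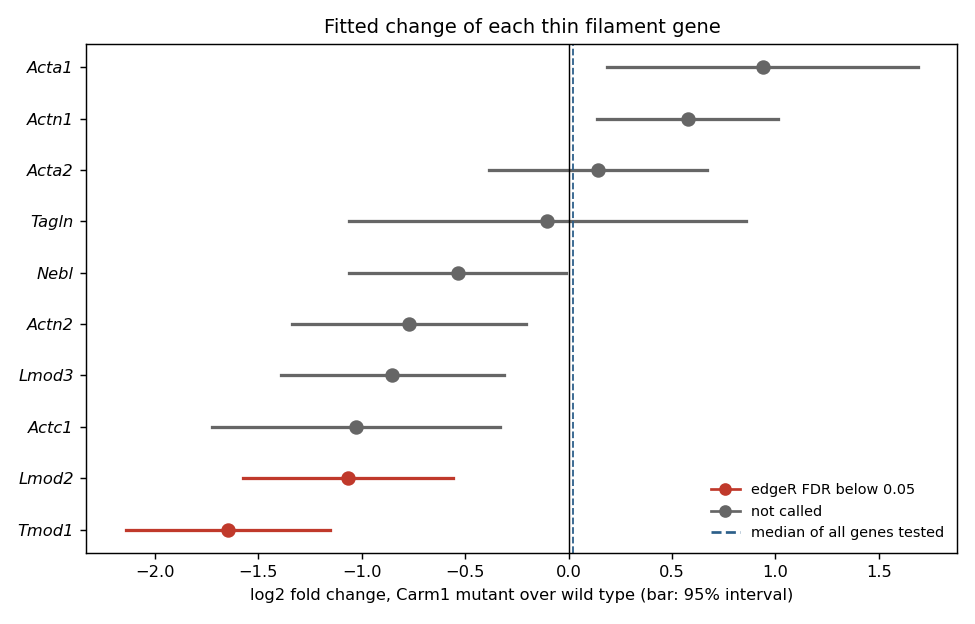
Fitted log2 fold change of each gene, Carm1 mutant over wild type (horizontal axis), with its 95% interval from the edgeR quasi-likelihood fit on 2 libraries a group; red marks an FDR below 0.05 and the dashed line is the median of all genes tested, 0.02. Only the intervals of Acta2 and Tagln include 0, and Tmod1 (−1.65) and Lmod2 (−1.07) are the called genes.

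The 3 alpha-actin genes differed in direction, and none was called. Actc1, the cardiac alpha-actin (chromosome 2, 114047282 to 114053548, minus strand), had 9700.4 and 10779.5 CPM in the mutants against 24147 and 17591 CPM in wild type. Both mutant libraries were below both wild-type ones, and the mutant mean was 49.1% of the wild-type mean. The difference was not called (log2 fold change −1.03, SE 0.30, 95% interval −1.72 to −0.33, edgeR FDR 0.0770). Without wild type replicate 1 the log2 fold change was −0.80 and without wild type replicate 2 it was −1.28. With all libraries kept, Actc1 passed in 4 of 15 alternative fits. Among them were DESeq2's Wald test (−1.05, FDR 5.28e-04) and the correction for transcript length and GC (−0.98, edgeR FDR 0.0244).

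Acta1, the skeletal alpha-actin (chromosome 8, 123891769 to 123894751, minus strand), had 297 and 587 CPM in the mutants against 249 and 213 CPM in wild type. Mutant replicate 2 was the highest library, and mutant replicate 1 lay only slightly above wild type. The log2 fold change was 0.94 (SE 0.32, 95% interval 0.19 to 1.69, edgeR FDR 0.112), so the gene was not called. Without mutant replicate 2 it was 0.36, and without mutant replicate 1 it was 1.34 (edgeR FDR 0.802 and 0.109). Without wild type replicate 1 it was 1.04, and without wild type replicate 2 it was 0.79. With all libraries kept, the gene passed in 6 of 15 alternative fits. Among them were library totals alone (1.35, edgeR FDR 0.0465) and DESeq2's Wald test (0.92, FDR 0.0260).

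Acta2, the smooth muscle alpha-actin (chromosome 19, 34241090 to 34255590, minus strand), had 1563 and 1693 CPM in the mutants against 1430.4 and 1517 CPM in wild type. The groups lay close together without overlap, with a log2 fold change of 0.14 (SE 0.23, 95% interval −0.38 to 0.67, edgeR FDR 0.723). That interval corresponds to 0.766 to 1.59 times the wild-type level.

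The balance of the actins within each library differed as well. Acta1 made up 2.97% and 5.17% of Acta1 plus Actc1 counts in the mutants against 1.02% and 1.19% in wild type. The exact Clopper-Pearson 95% intervals were 2.90% to 3.04% and 5.06% to 5.28% in the mutants against 0.990% to 1.05% and 1.16% to 1.23% in wild type. Acta2 made up 13.5% and 13.0% of the counts of the 3 genes in the mutants against 5.54% and 7.85% in wild type (intervals 13.4% to 13.6% and 12.8% to 13.1% against 5.47% to 5.61% and 7.77% to 7.94%). In both shares every mutant library was above every wild-type library by more than the counting error, and the exact permutation p was 0.333, the smallest possible. Of all actin counted per kb of exon, with Actb, Actg1 and Actg2 included, Actc1 held 83.1% and 81.2% in the mutants against 93.2% and 91.1% in wild type. No stretch of 100 bases of Acta1, Acta2 or Actc1 transcripts was found in an annotated transcript of another gene. No source used here says how reads matching several places were treated.

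**Figure D3:**
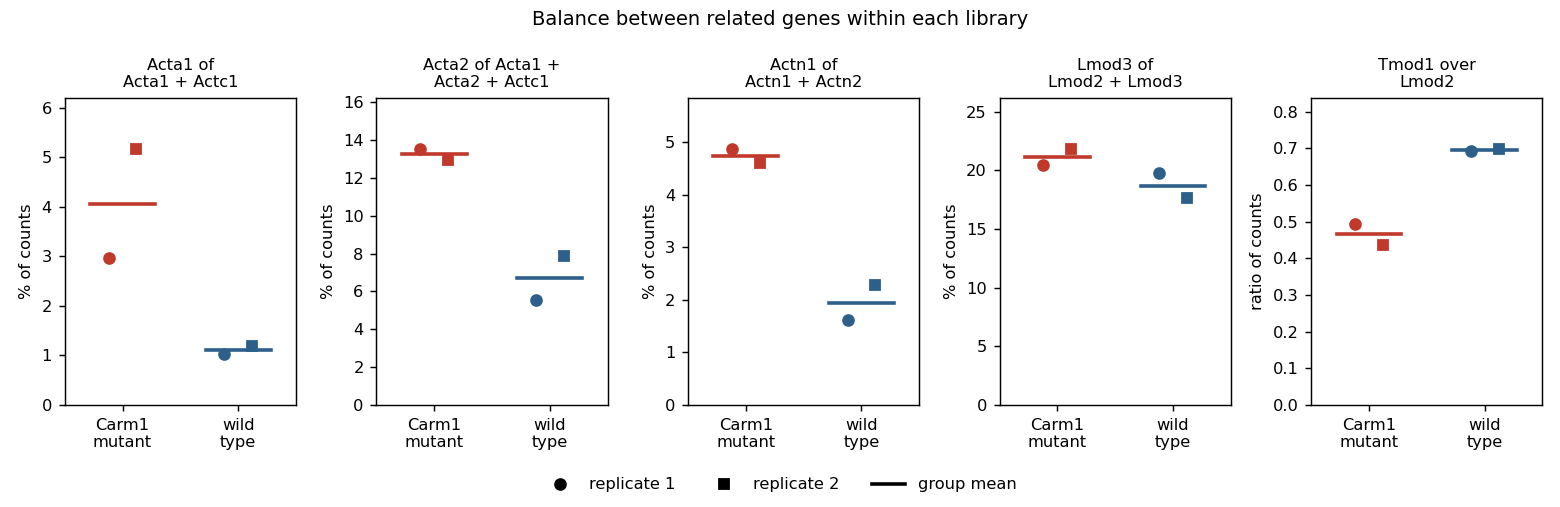
Shares of counts (first 4 panels, percent, from 0) and the ratio of Tmod1 to Lmod2 counts (last panel) within each library, with Carm1 mutant in red and wild type in blue; circles and squares are replicates 1 and 2 and bars are means of n = 2. Acta1, Acta2 and Actn1 take larger shares in both mutant libraries (Actn1 at 4.61% to 4.87% against 1.62% to 2.28%), and Tmod1 is lower relative to Lmod2.

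The promoters of the 3 alpha-actin genes are shown as a description, and a link between promoter sequence and level was not tested. The windows shown are the RefSeq windows of GRCm38.p6 from 250 bases before to 50 after the annotated start, written in the direction of transcription. Capitals mark the CArG box, the element bound by serum response factor (CC and GG around a core of A and T), and CArG boxes with 1 G or C in their core. Acta1 is at chr8:123894726-123895025, Actc1 at chr2:114052826-114053125 and Acta2 at chr19:34255324-34255623, each on the minus strand.
Acta1: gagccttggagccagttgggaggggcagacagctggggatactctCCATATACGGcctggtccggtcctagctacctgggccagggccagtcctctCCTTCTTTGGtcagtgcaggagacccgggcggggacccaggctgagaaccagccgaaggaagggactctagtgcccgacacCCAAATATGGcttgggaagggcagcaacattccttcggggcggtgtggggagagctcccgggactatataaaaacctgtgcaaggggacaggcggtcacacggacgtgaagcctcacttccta
Actc1: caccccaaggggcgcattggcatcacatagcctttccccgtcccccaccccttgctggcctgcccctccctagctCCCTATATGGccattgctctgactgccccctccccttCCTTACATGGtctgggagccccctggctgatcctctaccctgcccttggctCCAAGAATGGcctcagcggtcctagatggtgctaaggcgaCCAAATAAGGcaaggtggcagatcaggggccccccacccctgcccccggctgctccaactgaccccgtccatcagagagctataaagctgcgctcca
Acta2: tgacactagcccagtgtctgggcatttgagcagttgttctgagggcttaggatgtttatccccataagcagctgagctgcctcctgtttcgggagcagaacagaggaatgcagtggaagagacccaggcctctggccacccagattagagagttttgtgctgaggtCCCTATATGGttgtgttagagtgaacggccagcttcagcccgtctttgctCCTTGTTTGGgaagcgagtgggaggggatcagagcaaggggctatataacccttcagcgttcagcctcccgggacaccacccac
The windows of Acta1 and Actc1 each hold an intact CArG box, CCAAATATGG with its first base at position −73 in Acta1 and CCAAATAAGG at −47 in Actc1, counted from the annotated start. Acta2 has none intact, but holds CCCTATATGG at −84 and CCTTGTTTGG at −34, each with 1 G or C in the core. Actc1 holds CCCTATATGG as well, at −175. Of 32851 promoter windows of this length, 1.63% hold an intact box and 8.50% a box with 1 such substitution, with both strands searched. The table held windows for 8 of the 10 genes. Besides the actins, only 1 of 4 windows of Nebl held a box, CCTAAATTGG at −162; the windows of Tmod1, Lmod2, Actn1 and Actn2 held no match of either kind. The letters CATTCC, the MCAT element of muscle genes, occur in the windows of Acta1 (−46), Acta2 (−146, on the other strand), Tmod1 (−163) and Nebl (−230), and in 14.7% of all windows. The letters TATAAA begin at −7 in Acta1 and at 34 in Actc1, and occur in 13.6% of all windows. Whether transcription begins at the annotated starts was not tested, so positions may not line up between genes.

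Actn2, the sarcomeric alpha-actinin that crosslinks thin filaments at the Z-disc (chromosome 13, 12269426 to 12340760, minus strand), had 1622 and 1683 CPM in the mutants against 3103 and 2543 CPM in wild type. The groups did not overlap, and the difference was not called (log2 fold change −0.77, SE 0.24, edgeR FDR 0.0918). Actn1, the non-muscle alpha-actinin of stress fibres and adhesions (chromosome 12, 80167547 to 80260371, minus strand), had 83.0 and 81.4 CPM in the mutants against 51.0 and 59.3 CPM in wild type. It lay higher in both mutant libraries and was not called either (0.57, SE 0.19, edgeR FDR 0.0999). The log2 fold change of Actn2 was −0.64 without wild type replicate 1 and −0.95 without wild type replicate 2. That of Actn1 was 0.46 without wild type replicate 1 and 0.65 without wild type replicate 2. With all libraries kept, Actn2 passed in 4 of 15 alternative fits. Actn1 passed in 2 of 15, among them library totals alone (0.96). Within each library, Actn1 made up 4.87% and 4.61% of Actn1 plus Actn2 counts in the mutants against 1.62% and 2.28% in wild type. The exact Clopper-Pearson 95% intervals were 4.67% to 5.08% and 4.35% to 4.88% in the mutants against 1.51% to 1.73% and 2.15% to 2.41% in wild type, with an exact permutation p of 0.333. Of the exon bases of Actn1, 8.15% are shared with antisense transcripts, which had at most 12 counts in a library.

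Tagln encodes transgelin, an actin-binding protein of smooth muscle that is usually abundant where Acta2 is. Here its counts were 26 and 17 in the mutants, against 22 and 23 in wild type, about 1 CPM, and the groups overlapped (log2 fold change −0.10, SE 0.42, 95% interval −1.06 to 0.86, edgeR FDR 0.896). Its sign turned to 0.29 with library totals alone and to 0.04 without mutant replicate 1. The ratio of Tagln to Acta2 counts was 6.6e-04 and 7.4e-04 in the mutants against 8.8e-04 and 7.7e-04 in wild type. Of the exon bases of Tagln (GRCm38 chromosome 9, 45929619 to 45936058, minus strand), 67.9% are shared with other genes on the opposite strand, 62.4% with the antisense gene Gm48529 and 5.43% with Pcsk7. Gm48529 itself had 33 and 14 counts in the mutants, against 13 and 21 in wild type. Reads that fall in overlapping genes may be counted for neither, and no source used here gives the rule. The part of that overlap in the low count was not tested, and the value is uncertain as a level of Tagln.

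On the scale of CPM per kb of exon, which allows levels of different genes to be compared, the order in the mutants was Actc1 (6329), Acta2 (741), Actn2 (435), Acta1 (288), Lmod2 (105), Lmod3 (25.2), Tmod1 (24.5), Actn1 (14.9), Nebl (10.6) and Tagln (0.576). In wild type it was Actc1 (12898), Actn2 (744), Acta2 (671), Lmod2 (220), Acta1 (150), Tmod1 (76.7), Lmod3 (45.6), Nebl (15.4), Actn1 (9.97) and Tagln (0.612). Neighbours whose libraries overlapped were Lmod3 and Tmod1 in the mutants, and Actn2 and Acta2 in wild type. Thus Acta2 stood above Actn2, Acta1 above Lmod2 and Actn1 above Nebl in both mutant libraries. Acta1 stood below Lmod2 and Actn1 below Nebl in both wild-type libraries.

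Markers of cell types differed alongside these genes, and their part in the results was not tested. The heart label was met by abundant cardiomyocyte markers. The summed level of 8 cardiomyocyte markers (Myh6, Myl2, Myl3, Pln, Ryr2, Tnni3, Tnnt2 and Ttn) was 35110 and 37272 CPM in the mutants against 64444 and 57666 CPM in wild type, and all 8 had negative log2 fold changes, from −0.92 to −0.31 with a median of −0.77. EdgeR and limma-voom called 1 of them lower, Pln, while 7 were lower at an unadjusted p under 0.05 and DESeq2 called 7 lower. That of 10 fibroblast and myofibroblast markers was 6078 and 6436 CPM in the mutants against 3503 and 4148 CPM in wild type, with Postn (log2 fold change 1.38, edgeR FDR 0.0189) and Cthrc1 (1.68, edgeR FDR 0.0257) called higher by edgeR. All 10 had positive log2 fold changes, with 7 higher at an unadjusted p under 0.05, 4 called by DESeq2 and 2 by limma-voom. EdgeR calls in both lists came to 0 without mutant replicate 2, while without mutant replicate 1 they were 0 for the cardiomyocyte list and 2 for the fibroblast list. The 7 endothelial markers summed to 1569 and 1372 CPM in the mutants against 859 and 1176 CPM in wild type, with Cldn5 called higher by edgeR (1 of 7, also 1 by limma-voom), 3 by DESeq2 and 3 at an unadjusted p under 0.05. The 13 smooth muscle and pericyte markers summed to 2992 and 3154 CPM in the mutants against 3836 and 3648 CPM in wild type. Most of that sum was Des, which cardiomyocytes express too (1508 and 1701 CPM in the mutants against 2702 and 2084 CPM in wild type). Their median log2 fold change was −0.04, with 5 positive and 8 negative. EdgeR, DESeq2 and limma-voom each called only Lmod1, as lower, and 2 were lower at an unadjusted p under 0.05. Myh11, the myosin of smooth muscle, had 57.7 and 57.4 CPM in the mutants against 48.2 and 70.2 CPM in wild type. Of 14 skeletal muscle markers, Myh1, Myh4, Pax7 and Tnnc2 were at 0 in every library, 6 others had at most 14 counts, and the sum was 26.6 and 29.5 CPM in the mutants against 27.8 and 18.0 CPM in wild type. Macrophage markers summed to 111 and 120 CPM in the mutants against 108 and 99.9 CPM in wild type, and red cell markers to 539 and 864 CPM against 711 and 508 CPM. In bulk heart RNA, fewer cells of a type and less RNA per cell cannot be told apart.

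Set against the summed counts of those 8 cardiomyocyte markers in the same library, 3 members overlapped between the genotypes and 7 did not, 4 higher and 3 lower in the mutants. On this scale 82.2% of all genes tested did not overlap, 77.6% higher and 4.68% lower in the mutants, so the count of non-overlapping members was not above the background and a higher ratio was the usual direction. This ratio was chosen after the values were seen, and its exact permutation p cannot go below 0.333. The largest part of the marker sum was Myh6, with 343191 and 185051 counts in the mutants against 406598 and 558144 in wild type. From wild type replicate 1 to 2, Myh6 went from 23254 to 28506 CPM. Ryr2 and Ttn moved with it, and the other markers moved the other way. How far these ratios hang on Myh6 was not tested. Actn2 had 46.2 and 45.2 counts per 1000 marker counts in the mutants against 48.2 and 44.1 in wild type, and the groups overlapped. Lmod3 (1.46 and 1.63 against 1.84 and 1.44) and Nebl (4.37 and 4.57 against 3.09 and 4.69) overlapped as well. Tmod1 was lower, at 2.80 and 2.55 per 1000 in the mutants against 5.19 and 4.70 in wild type, a ratio of means of 0.541. Lmod2 had 5.65 and 5.84 in the mutants against 7.48 and 6.73 in wild type (0.808), and Actc1 had 276 and 289 against 375 and 305 (0.832), both without overlap. Acta1 had 8.45 and 15.8 in the mutants against 3.86 and 3.69 in wild type (3.21), Acta2 had 44.5 and 45.4 against 22.2 and 26.3 (1.85), and Actn1 had 2.36 and 2.18 against 0.792 and 1.03 (2.50). Tagln, with at most 26 counts a library, had 0.0295 and 0.0336 in the mutants against 0.0195 and 0.0204 in wild type (1.58).

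**Figure D4:**
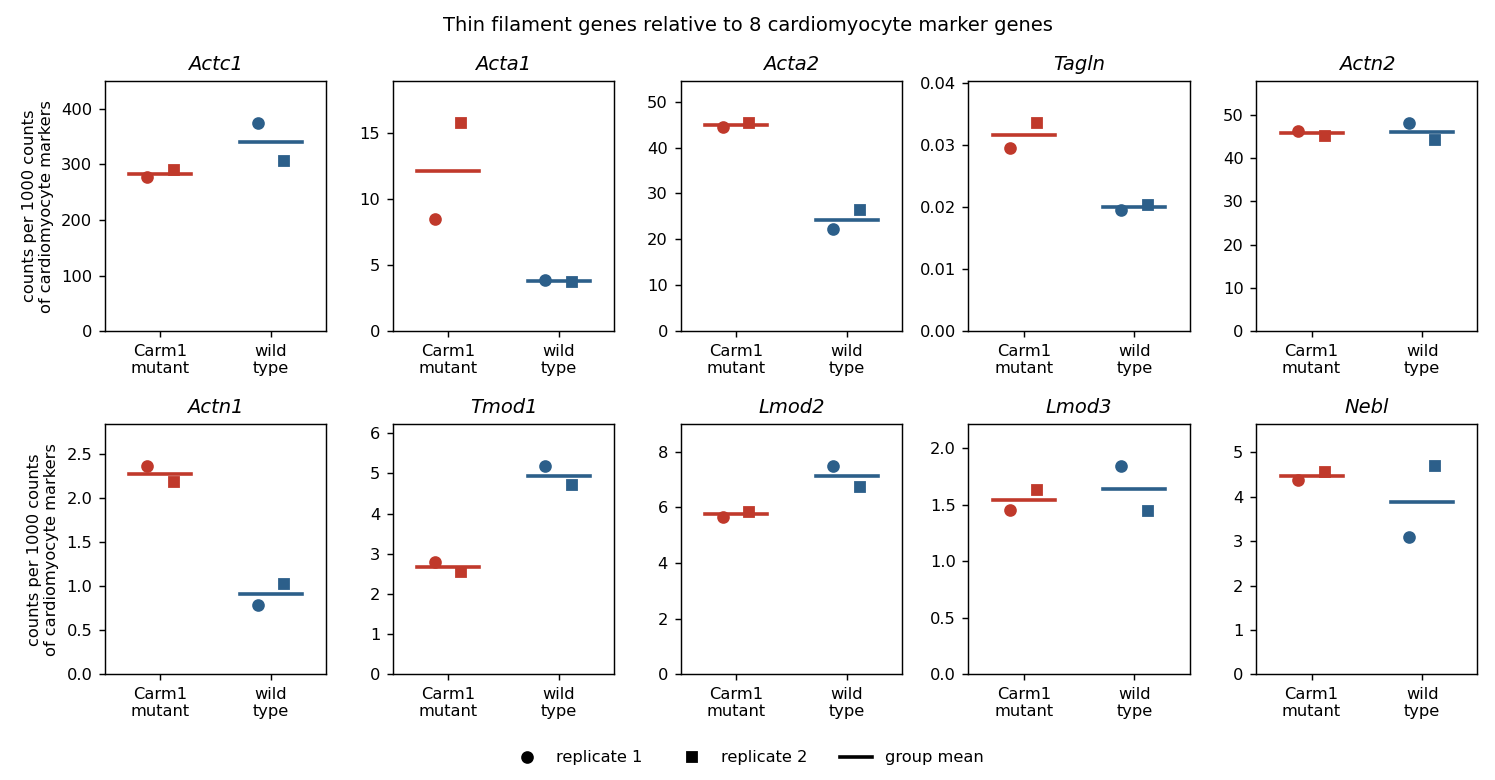
Counts of each gene per 1000 summed counts of the 8 cardiomyocyte markers in the same library (vertical axis, from 0), with Carm1 mutant in red and wild type in blue; circles and squares are replicates 1 and 2 and bars are means of n = 2. The groups overlap for Actn2, Lmod3 and Nebl, while Tmod1 is at 2.55 to 2.80 in the mutants against 4.70 to 5.19 in wild type.

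Other genes of the actin filament were read from lists. Of 22 genes of thin filament assembly and turnover, 3 fell, 0 rose and 19 did not pass. Over all genes tested, 4.58% were called lower and 2.79% higher. The median log2 fold change of the list was −0.18 beside 0.02 for all genes. At an unadjusted p under 0.05 there were 6 higher and 6 lower; DESeq2 called 2 higher and 4 lower, and limma-voom 1 higher and 3 lower. Fhod3, a formin that builds cardiac thin filaments, had 119 and 110 CPM in the mutants against 333 and 332 CPM in wild type (log2 fold change −1.54, SE 0.20, edgeR FDR 0.0103). Cap2, which recycles actin monomers, had 73.7 and 74.4 CPM in the mutants against 186 and 148 CPM in wild type (−1.17, SE 0.21, edgeR FDR 0.0220). Xirp1, an actin-binding repeat protein of the intercalated disc, had 197 and 247 CPM in the mutants against 427 and 398 CPM in wild type (−0.90, SE 0.22, edgeR FDR 0.0494). The call of Xirp1 was borderline and was lost with library totals alone (−0.50, edgeR FDR 0.135), DESeq2 size factors (0.0518), upper-quartile factors (0.0639), a robust fit (0.0559) and mitochondrially encoded genes left out (0.0501). The list had 0 lower calls without either mutant replicate in turn, 5 without wild type replicate 1 and 8 without wild type replicate 2, beside 179, 156, 1408 and 3126 lower calls over all genes without mutant replicates 1 and 2 and wild type replicates 1 and 2.

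Relatives of the members were mostly not called. Among the 4 other tropomodulins and leiomodins, Lmod1, the smooth muscle leiomodin, fell (6.18 and 7.58 CPM in the mutants against 15.8 and 14.9 CPM in wild type, log2 fold change −1.17, edgeR FDR 0.0244), and Tmod2, Tmod3 and Tmod4 did not pass. Of the other actins (3 tested) none was called by edgeR, DESeq2 or limma-voom (0 at an unadjusted p under 0.05). The most abundant was Actb, with 494 and 686 CPM in the mutants against 463 and 366 CPM in wild type. Actn4, a non-muscle alpha-actinin, had 337 and 352 CPM in the mutants against 232 and 253 CPM in wild type (0.51, edgeR FDR 0.150); Actn3, the alpha-actinin of fast skeletal muscle, had at most 14 counts and was not tested. In the nebulin family (Neb, Nrap and Lasp1) edgeR and limma-voom made 0 calls, with 1 higher and 1 lower at an unadjusted p under 0.05, and DESeq2 called 1 lower. Nrap, an actin-binding protein of myofibril assembly, had 256 and 263 CPM in the mutants against 485 and 431 CPM in wild type (−0.82, edgeR FDR 0.0540). Lmod1 was no longer called when mutant replicate 1 or mutant replicate 2 was left out (edgeR FDR 0.225 or 0.0685) or when library totals set the scale (edgeR FDR 0.0741).

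Of 8 genes of leiomodin stabilisation and nemaline myopathy, 1 fell and 1 rose, beside 4.58% lower and 2.79% higher over all genes tested. At an unadjusted p under 0.05, 2 of them were higher and 3 lower. DESeq2 called 1 higher and 2 lower, and limma-voom 1 higher and 1 lower. Klhl41, a muscle Kelch protein that stabilises nebulin, fell (22.5 and 25.7 CPM in the mutants against 63.1 and 40.4 CPM in wild type, log2 fold change −1.10, edgeR FDR 0.0391). Tpm3, a tropomyosin of slow muscle and of non-muscle cells, rose (84.1 and 74.4 CPM in the mutants against 40.8 and 48.4 CPM in wild type, 0.83, edgeR FDR 0.0446). Of 9 genes of the serum response factor axis, 2 fell and 7 did not pass, with a median of −0.49. In that list 0 were higher and 5 lower at an unadjusted p under 0.05. DESeq2 called 0 higher and 3 lower, and limma-voom 0 higher and 2 lower. Srf, the factor that binds the CArG box, had 75.9 and 78.5 CPM in the mutants against 162 and 135 CPM in wild type (log2 fold change −0.94, SE 0.20, edgeR FDR 0.0324). Fhl2, a LIM protein of the sarcomere and a cofactor of Srf, had 401 and 416 CPM in the mutants against 1674 and 941 CPM in wild type (−1.68, SE 0.31, edgeR FDR 0.0244). The Srf coactivators Myocd, Mrtfa and Mrtfb had log2 fold changes of −0.49, 0.25 and −0.05 and were not called. Each of these 4 calls was lost when either mutant library was left out, and those of Klhl41 and Srf also when library totals set the scale.

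**Figure D5:**
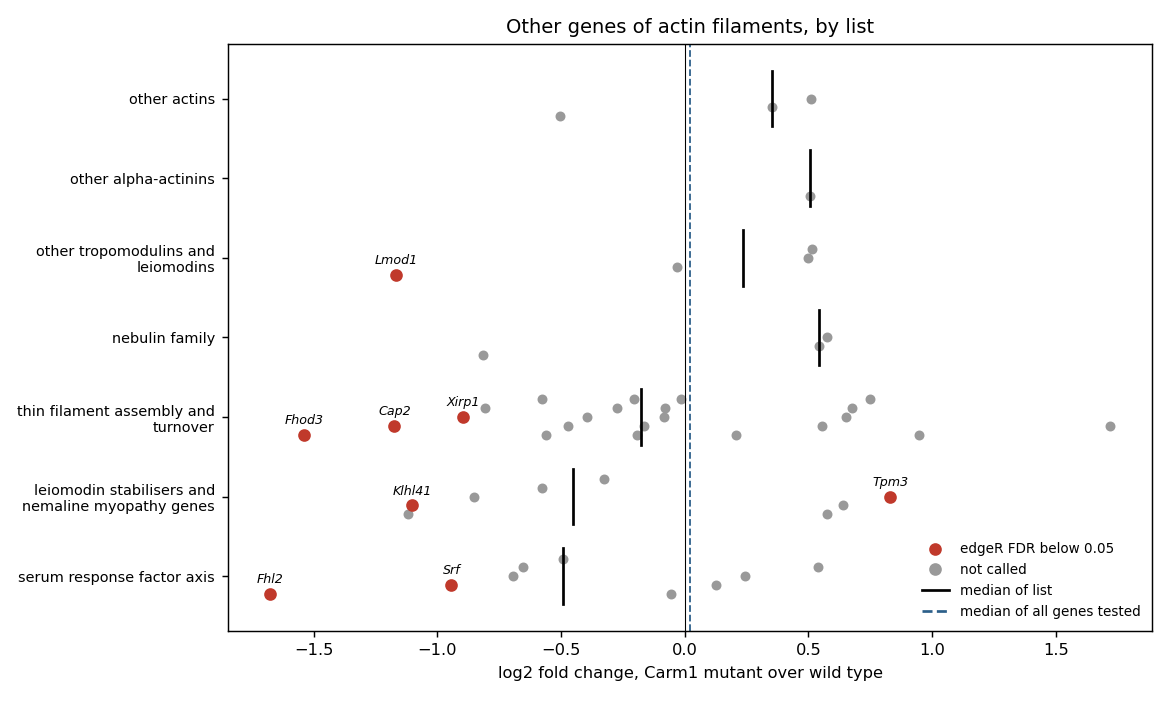
Log2 fold changes, Carm1 mutant over wild type (horizontal axis), of the tested genes of 7 lists (rows); each point is a gene, red where the edgeR FDR was below 0.05, black bars are list medians, the dashed line is the median of all genes tested and vertical offsets within a row only separate points. Fhl2 (−1.68) and Fhod3 (−1.54) lie farthest to the left, and Tpm3 (0.83) is the only called gene to the right of 0.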

How the data were processed

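RNA-seq counts per gene from 4 heart libraries were used as the authors deposited them: whole numbers, not normalised, 1 column a sample. FastQC, HISAT2 and the mm10 build are named in the submitters' processing notes; the counting program, its annotation, strand and treatment of multiply matching reads appear in no source used here. Columns were matched to samples by title and grouped by genotype. Names and GRCm38 coordinates came from GENCODE M21 (54723 of 54752 identifiers matched; unmatched ones held at most 0.00106% of a library), and promoter windows from RefSeq. No library repeated another within counting error (chi-square per degree of freedom 11.5 for the mutant and 51.1 for the wild-type pair).

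Genes were kept with filterByExpr, scaled by TMM (factors 1.13 and 1.16 in the mutants, 0.806 and 0.943 in wild type) and tested with edgeR 4.0.16 in R 4.3.3 (quasi-likelihood test, genotype only, Benjamini-Hochberg FDR over all genes, threshold 0.05). Standard errors are the log2 fold change divided by the square root of F. Shares were compared by exact two-sided permutation. Alternatives were other scalings, filters and tests (DESeq2 1.42.0, limma 3.58.1 with voom), a replicate block, correcting for transcript length and GC, thinning and leaving out each library; a crossed block was added after the data were seen. In counts simulated for this comparison over 14753 genes, 49 of 100 genes changed by a log2 value of 1 and 100 of 100 changed by 2 were recovered. Unchanged genes gave 5 false calls. The simulation gave all genes, in both groups, the same common dispersion. Real libraries can differ in dispersion between genes and between groups, so recovery in these data may differ. Members and lists were chosen with earlier results of these data known. Besides the members and Carm1, the text names up to 3 called genes a list (smallest adjusted p) or else its most abundant gene. It also names up to 2 called markers a list and the nearest gene to each member. Named beyond that rule are Myh11, Des, Neb, Lasp1, Actn3, Tmod2, Tmod3, Tmod4, Actg1, Actg2, the coactivators of Srf and genes at 0. So are the cardiomyocyte markers, Xist and genes that overlap members.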

Additional observations from a re-analysis of the deposited data

How the results depend on the processing

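Against 1126 calls in all, 2 members lower and 0 higher, the counts were 2630, 5 and 1 with no filter on low counts, 1705, 5 and 1 with DESeq2's Wald test, 2841, 6 and 1 after correcting for transcript length and GC, and 2663, 3 and 1 with both this correction and a replicate block. With library totals alone 1 member was called lower and 2 higher, and Lmod2 had a log2 fold change of −0.66 (edgeR FDR 0.0611). Leaving out a library gave 377 to 5679 calls, 0 to 6 members lower and 0 to 1 higher, with Tmod1 at −1.83 to −1.50 and Lmod2 at −1.25 to −0.92; the cause was not tested, though a fit with 3 libraries takes its spread from the remaining pair. The correlation of deviations from the group means was −0.25 for libraries of the same number and 0.25 for crossed numbers. With 2 libraries a group these values are always opposite, so they cannot decide whether the libraries were paired. A replicate block gave 1222 calls and the same member counts of 2 and 0, with Lmod2 at an FDR of 0.0473 and Srf (0.0565), Tpm3 (0.0825) and Xirp1 (0.0982) no longer called, and pairing crossed numbers gave 4176 calls, 5 members lower and 2 higher. Over 19 alternatives for each of the 10 members, 155 of 190 log2 fold changes kept their side of the threshold, 31 passed newly and 4 no longer passed; the sign of Tagln turned in 2. Differences in share, mutant minus wild type in percentage points, were 5.07 for Acta2 and 1.96 for Actn1 per kb of exon, beside 6.54 and 2.79 in counts. The mutant mean over the wild-type mean was 2.01 and 2.45 per kb for these shares, beside 1.98 and 2.43 in counts. The Tmod1 to Lmod2 difference was −0.115 per kb beside −0.230. That is a change of unit only, and the mutant mean was 0.670 times the wild-type mean in both. The Tagln to Acta2 difference was −0.000214 after thinning beside −0.000125. Leaving out a library moved the Acta1 share difference between 1.86 and 4.06, that of Acta2 between 5.39 and 7.70, of Actn1 between 2.46 and 3.12 and of Lmod3 between 1.39 and 3.52. Depth was lowest in mutant replicate 2, where 3 counts are 0.221 CPM, and limits Tagln most.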

Other observations

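Over the 4 libraries, the gene whose pattern was nearest to each member, by Euclidean distance of centred log2 CPM among genes with a mean of at least 10 CPM, was found as a description. Nearest to Tmod1 was Tcaim, a mitochondrial protein, at a distance of 0.031, with 10.1 and 9.87 CPM in the mutants against 33.9 and 28.1 CPM in wild type. Nearest to Lmod2 was Phyh, a peroxisomal hydroxylase (0.024), to Lmod3 Hibch, an enzyme of valine breakdown (0.022), to Actn2 Gnpat, an enzyme of ether lipid synthesis (0.025), to Actc1 Mpi (0.039), to Nebl Slc4a4 (0.066), to Actn1 Nras (0.017), to Acta2 1810030O07Rik (0.014) and to Tagln Slc2a1 (0.023). With 4 libraries many genes lie this close: 153 others were within 0.2 of Lmod2 and 188 of Actc1, but 17 of Tmod1 and 0 of Acta1, whose nearest gene, Drd2, was at 0.289.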
